A study of Homo sapiens with 7 samples.

Results

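ASH1L knockout clones of BHT-101 cells were divided by where their premature stop codon lies, and the clones with a late stop were compared with those with an early stop. BHT-101 is an established line from a human anaplastic thyroid cancer. Per the labels, the early-stop clones are KO1, with the stop after residue 413 on both alleles, and KO2, with the stop after residue 610 on both alleles. The late-stop clones are KO3, with the stop after residue 2129 on both alleles, and KO4, with stops after residues 2169 and 2174. All 4 are edited at ASH1L, each is 1 clone with 1 library, and no edited clone with intact ASH1L was analysed. A class therefore holds 2 clones, and the position of the stop cannot be told apart from other differences among clones. Wild-type (WT) BHT-101 cells, with 3 biological replicates, gave the reference level. All cells grew in DMEM with fetal bovine serum, and no treatment is named. Genes entered the comparison when log2 RPKM (reads per kilobase of gene scaled to library size, on a log2 scale) was above 0 in at least 2 of the 4 clones, which held for 11164 of 13142 genes. Of these, 28 were above 0 in both late-stop clones and in neither early-stop clone, and 31 showed the opposite, so all of these had to differ in level. Just inside the limit, the second-highest clone stood at 0.0016 for ARSG and 0.0014 for FRS3, and just outside it at -0.0040 for CLDN23 and -0.0036 for HNRNPA1L2.

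ASH1L encodes a large Trithorax-group histone methyltransferase that places dimethylation on lysine 36 of histone H3 through its SET domain. It works in a complex with MORF4L1, a chromodomain protein that stimulates its activity, and it is known for keeping genes active against the Polycomb group of repressors. Downstream of the SET domain the protein carries a bromodomain, a PHD finger and a BAH domain. An early and a late stop would leave products of very different length if they were made. Domain positions were not available here, so whether a late-stop product would keep an intact SET domain is not stated.

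The reference coding sequence at each labelled stop was read to show where the classes differ. In transcript ASH1L-201 of GENCODE 29 (minus strand of chromosome 1, hg38, 28 exons, 2969 residues), each line gives a stretch of the coding strand with the codon of the last residue named by the labels in capitals. The edited sequence itself is not given, so the lines show the unedited gene.

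KO1, residue 413, chr1:155481616-155481648: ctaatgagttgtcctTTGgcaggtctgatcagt

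KO2, residue 610, chr1:155481025-155481057: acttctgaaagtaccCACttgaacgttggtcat

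KO3, residue 2129, chr1:155370929-155370961: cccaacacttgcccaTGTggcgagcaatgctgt

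KO4, residue 2169, chr1:155370809-155370841: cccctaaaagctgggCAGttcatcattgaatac

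KO4, residue 2174, chr1:155370794-155370826: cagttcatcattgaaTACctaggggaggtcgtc

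Both early positions lie in exon 3, at 13.9% and 20.5% of the protein. All 3 late positions lie in exon 11, at 71.7%, 73.1% and 73.2%. The second coding transcript, ASH1L-202, has 2964 residues. There the late codons shift by the difference in length while the early ones stay in place, and the labels do not say which form was numbered.

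The tissue markers were checked first. Keratins of simple epithelia were high in all 7 libraries, with KRT18 between 6.70 and 7.78 log2 RPKM and KRT8 between 5.64 and 7.42. The epithelial marker EPCAM was between 1.71 and 3.88. CDH1 (E-cadherin) was at 0.47 to 0.78 in WT and 1.96 in KO2. It was far lower in the other clones, at -5.86 in KO1, -2.20 in KO3 and -2.83 in KO4. Of 5 listed thyroid genes, 4 passed the rule for genes tested. The exception was PAX8, a lineage transcription factor, which did not exceed -1.20 in any library. HHEX ran from 0.50 in KO3 to 2.5004 in KO2, and THRA from 0.63 in WT2 to 1.97 in KO2. DIO2 ran from -3.24 in KO2 to 3.96 in KO1, and THRB from -2.06 in KO1 to 1.89 in WT1. Of 8 leukocyte markers 2 were listed, and neither passed the rule for genes tested. CD3D, a T cell receptor subunit, stood at 3.05 to 3.39 in WT and below 0 in every clone, at -7.75 and -0.96 in KO1 and KO2, and -2.51 and -0.47 in KO3 and KO4. Relative library sizes, estimated from the steps between the lowest values, ran from 0.760 in KO3 to 1.21 in KO4. These are rough, since they rest on 3 values in KO3 and 4 in KO4 and on an assumed constant added to the counts.

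ASH1L mRNA did not follow the class. The WT replicates had ASH1L (ENSG00000116539, chr1:155335268-155562807) at a log2 RPKM of 3.34, 3.30 and 3.22. It was 2.69 in KO1 and 2.54 in KO2 of the early class, and 2.42 in KO3 and 3.74 in KO4 of the late class. The late-stop clones were thus the lowest and the highest of all 7 libraries, and the classes overlapped. The difference late-stop minus early-stop was 0.47 ± 0.48 (SE, n = 2 against 2, 95% interval -0.76 to 1.70; exact two-sided permutation p = 1, where 6 splits allow no p below 0.333). Against the median of the genes within 5 Mb, ASH1L stood at -0.26 and -0.56 in the early-stop clones, -1.01 in KO3 and 0.28 in KO4, and the difference between classes became 0.04. Without KO4 it was -0.19 and without KO3 1.13, so KO4 alone set its direction.

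Over the whole expressed genome the classes were not the nearest pairs. The median absolute log2 difference over the 11164 genes was 0.41 between the early-stop clones KO1 and KO2, the widest of the 6 pairs of clones, and 0.33 between the late-stop clones KO3 and KO4. The closest pair, KO1 and KO4 at 0.26, joined the classes, and KO2 and KO4 followed at 0.28. Pairs with KO3 from the other class stood at 0.36 with KO1 and 0.37 with KO2. Genes differing by over 1 log2 unit made up 17.8% between the early-stop clones, 11.0% between the late-stop clones and 7.82% between KO1 and KO4. Pairs of WT replicates lay far below, at medians of 0.09 to 0.14.

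**Figure D1:**
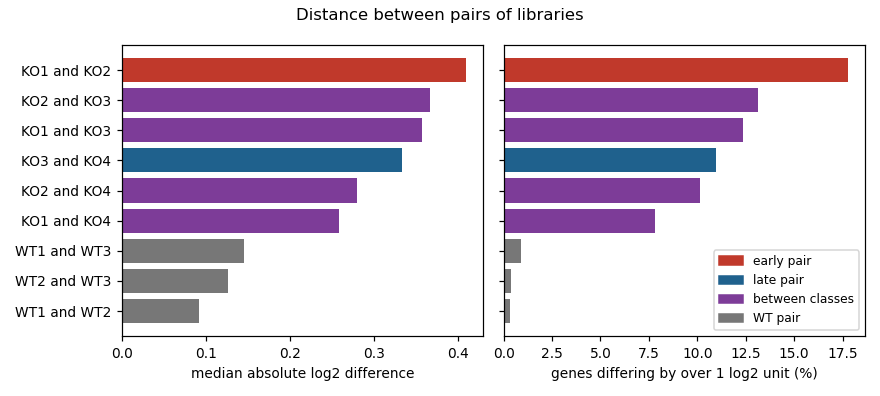
Distance between libraries over the 11164 genes. Bars give, for each pair of libraries, the median absolute log2 RPKM difference (left) and the percentage of genes that differ by over 1 log2 unit (right), coloured by whether the pair lies within a class, between classes or among WT; KO1 and KO2, both early-stop, are the widest pair at 0.41, and KO1 and KO4, from different classes, are the closest clones at 0.26.

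No gene passed the test of the class. With limma on the 4 clones, 0 of 11164 genes (0%) had a Benjamini-Hochberg adjusted p under 0.05, the lowest being 0.9999. At an unadjusted p under 0.05 there were 73 genes (0.654%), fewer than the 5% a uniform distribution of p would hold, with 47 higher in the late-stop clones (0.421%) and 26 lower (0.233%). Adding the WT replicates to the estimate of spread gave 422 genes at that unadjusted level (3.78%) and again 0 after adjustment. That fit is less reliable: in simulation it made 139 false calls after adjustment, against 1 for the fit of 4 clones. Leaving out KO1, KO2, KO3 or KO4 gave 664, 482, 62 and 203 genes at the unadjusted level in the fit of clones. The median SD of a gene was 0.29 between the early-stop clones and 0.24 between the late-stop clones, against 0.10 among WT replicates. The unadjusted 95% interval of a difference had a median half-width of 0.86 log2 units over the tested genes. On simulated data the fit of 4 clones recovered 0% of changes of 2 log2 units, so differences of that size may well have been missed. The simulated spreads were drawn around a smoothed trend on the mean level and not taken from each gene.

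Separation of the classes was common and mostly narrow. The classes did not overlap in 2197 genes (19.7%). In 1098 genes (9.84%) both late-stop clones lay above both early-stop clones, and in 1099 genes (9.84%) both lay below. The gap between the nearest clones of the classes was under 0.2 log2 units in 76.5% of these. A mean difference above 1 log2 unit was found in 362 genes, and in 238 of them the classes overlapped. In 19 genes (0.17%) the gap was at least 1 log2 unit, with values below -2 set to -2. Of these 11 (0.0985%) were higher and 8 (0.0717%) lower in the late-stop clones (12 and 14 after quantile normalization), and 2 of the 19 have clone-based names and are counted only. Leaving out KO1, KO2, KO3 or KO4, which leaves a class of 1 clone, raised the 19 to 551, 411, 106 and 318. The groups described next were chosen by these gaps and p-values, so their separation is a description.

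The 4 genes with the smallest p toward higher values in late-stop clones were TRIB2, MLLT11, TRBC2 and COL6A3. TRIB2 (ENSG00000071575, chr2:12716889-12742734) encodes a pseudokinase of the Tribbles family that steers proteins to degradation. Its log2 RPKM was 2.26, 2.31 and 2.16 in WT1, WT2 and WT3, 0.56 in KO1 and 1.01 in KO2, and 2.89 in KO3 and 2.92 in KO4. Both early-stop clones lay below all WT replicates and both late-stop clones above them, the only gene with this order by at least 0.5 log2 units. The difference was 2.12 ± 0.31 (SE; limma, unadjusted p = 0.000976, adjusted p = 0.9999), or 4.35-fold.

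MLLT11 (ENSG00000213190, chr1:151057758-151068497) encodes a small nuclear cofactor first known as a fusion partner of MLL in leukaemia. It was at 1.23, 1.29 and 1.15 in the WT replicates, 0.96 and 0.38 in KO1 and KO2, and 3.62 and 2.93 in KO3 and KO4. Here the late-stop clones stood apart, above every other library, while KO1 was near WT. The difference was 2.61 ± 0.39 (SE), or 6.10-fold.

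TRBC2 (ENSG00000211772, chr7:142801041-142802748) is the constant segment of the T cell receptor beta chain. Its WT values were 6.19, 6.01 and 5.96, and KO1 and KO2 stood at 2.36 and 3.46 against 5.36 in KO3 and 5.29 in KO4. All clones were below WT, and the early-stop clones were the farther ones, by 2.41 ± 0.41 (SE). CD3D, given above, was far below WT in both classes, and what part leukocyte-type transcripts play in this difference was not tested.

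COL6A3 (ENSG00000163359, chr2:237324003-237414375), a chain of collagen VI, had the widest gap, 2.90 log2 units. It was at 0.67, 0.82 and 0.86 in WT, -2.35 and -2.17 in KO1 and KO2, and 0.90 and 2.39 in KO3 and KO4. KO3 stood at the WT level, KO4 above it and both early-stop clones below it. The late-stop clones lay farther from each other than the early-stop ones did, and the difference between classes was 3.91 ± 0.90 (SE).

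Other genes higher in late-stop clones by a gap of at least 1 took the WT level in different ways. RNF144A, an E3 ubiquitin ligase, was at 0.81 to 0.99 in WT, 1.43 in KO3 and 1.06 in KO4, but -1.19 in KO1 and -0.70 in KO2. ECM1, a secreted glycoprotein of the extracellular matrix, showed another order. It was between 0.0033 and 0.16 in WT, -0.32 and -0.02 in KO1 and KO2, and 2.00 and 1.13 in KO3 and KO4. Both early-stop clones were thus near WT for ECM1, and the late-stop clones lay above it. TRIM54, a RING finger protein of striated muscle, and C1GALT1C1L had late-stop values of 0.43 to 1.32 and 0.84 to 1.00, close to or above WT, and early-stop values below 0. Of the 11 genes, 7 had a WT mean nearer to the late-stop mean and 4 a WT mean nearer to the early-stop mean. COL6A3, RNF144A, ECM1, TRIM54 and C1GALT1C1L are among the 28 genes above 0 in the late-stop clones only. The filter passed them through the class where they were high, so part of their separation was fixed by it.

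Genes lower in late-stop clones were led by MTUS1, CDCA7L, HHEX and KCNS3. MTUS1, which encodes microtubule-associated proteins, was at 0.82, 1.12 and 1.10 in WT, 2.24 and 2.79 in KO1 and KO2, and 0.76 and 0.92 in KO3 and KO4. The late-stop clones were within 0.5 log2 units of WT and both early-stop clones more than 1 above it, the only gene of that order. The difference was -1.67 ± 0.34 (SE; limma, unadjusted p = 0.00434, adjusted p = 0.9999). HHEX, a homeobox factor of early thyroid and liver, was likewise nearer to WT in the late-stop clones. Its values were 0.78 to 1.21 in WT, 1.89 and 2.5004 in the early-stop clones, 0.50 in KO3 and 0.77 in KO4.

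CDCA7L, a MYC-interacting relative of CDCA7, split around WT. It was at 3.20 to 3.27 in WT, 4.44 and 4.09 in KO1 and KO2, and 2.11 and 3.06 in KO3 and KO4, so that every late-stop value was below and every early-stop value above WT. KCNS3, a modulatory subunit of voltage-gated potassium channels, was at -1.52 to -0.64 in WT, 1.84 and 1.79 in KO1 and KO2, -0.02 in KO3 and -1.26 in KO4. SAA1, an acute-phase apolipoprotein, had WT values of 0.68, 1.11 and 1.96, the widest WT spread among these genes, with 2.501 and 2.29 in KO1 and KO2, 0.34 in KO4 and -2.44 in KO3. SAA1, GCA (grancalcin, a calcium-binding protein) and MARCH3 (a membrane-bound E3 ligase) were the 3 genes with both late-stop clones at least 0.5 below the WT mean and both early-stop clones at least 0.5 above it. PPL, the desmosomal plakin periplakin, stood at 1.66 and 2.61 in the early-stop clones, -0.45 to -0.26 in WT, 0.45 in KO4 and -1.58 in KO3. Of the 8 genes, 6 had a WT mean nearer to the late-stop mean. KCNS3, GCA and MARCH3 are among the 31 genes above 0 in the early-stop clones only, so the filter fixed part of their separation.

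KRT7, a keratin of simple epithelia, and ALDH1A3, a retinaldehyde dehydrogenase, were separated by less than 1 log2 unit. KRT7 was at 6.22 to 6.60 in WT, 6.71 and 6.23 in KO1 and KO2, and 5.13 and 5.55 in KO3 and KO4, so the late-stop clones were the lowest of the 7 libraries. ALDH1A3 was at 2.88 to 3.32 in WT, 3.75 and 4.55 in the early-stop clones, 1.97 in KO3 and 3.00 in KO4, so KO4 lay within the WT range and KO3 below it. RPS3AP6 also had a small p, but it is a processed pseudogene whose reads may come from near-identical copies, and its value is uncertain.

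**Figure D2:**
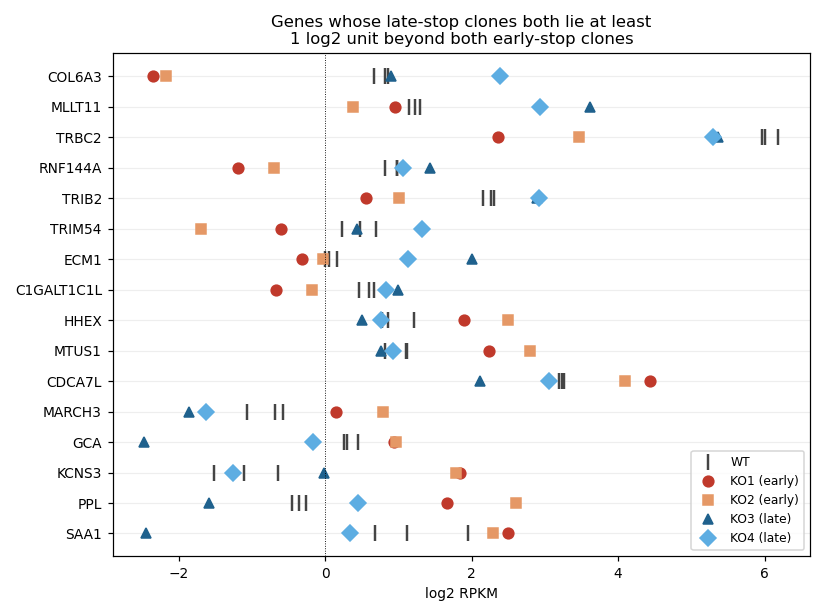
Log2 RPKM in each of the 7 libraries for the described genes whose late-stop clones both lie at least 1 log2 unit beyond both early-stop clones. Each row is a gene and each symbol a library; TRIB2 has the early-stop clones below and the late-stop clones above WT, while ECM1 has the early-stop clones near WT and the late-stop clones above it.

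A block of genes around ASH1L itself separated the classes. Chromosome position was examined in 209 bins, each 10 Mb long and holding 20 or more tested genes (9504 in all), and the median log2 difference of each clone from the WT mean was taken in each. The medians of the late-stop clones lay above those of both early-stop clones in 16 bins and below in 36, nearly always by little. In 1 bin the gap was at least 0.2: the stretch of chromosome 1 from 150 to 160 Mb, which holds ASH1L. Its 134 tested genes had medians of -0.33 in KO1 and -0.19 in KO2, against 0.15 in KO3 and 0.19 in KO4, while the WT replicates lay between -0.01 and 0.03. In 74 of these genes (55.2%) both late-stop clones were above both early-stop clones and in 0 both were below, beside 9.84% in each direction over all genes. The bin was singled out by these values, so no test is given.

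Farther along the chromosome the clones took another order, but the change did not fall at the 160 Mb edge. From 6 to 8 Mb beyond ASH1L, 7 genes still had medians of -0.13 in KO1 and -0.03 in KO2. Those of KO3 and KO4 were 0.15 and 0.20. Of the 51 tested genes from 160 to 170 Mb, 31.4% were higher in the late-stop clones without overlap, though the clone medians overlapped between classes. In the 318 tested genes of chromosome 1 beyond 160 Mb, KO1 had a median of -0.72 and KO2 of 0.20, with 0.10 in KO3 and -0.20 in KO4. The early-stop clones thus lay on both sides of the late-stop ones, and 11.6% of genes had the late-stop clones higher without overlap. From 125 to 150 Mb, in 25 genes, KO2 was likewise at 0.23 and KO1 at -0.76. KO2 was therefore low near ASH1L and high on both flanks, and KO4 was at 0.22 on the proximal flank and negative on the distal one. On the other side of the chromosome, below 125 Mb, the 4 medians lay between -0.0045 and 0.19.

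**Figure D3:**
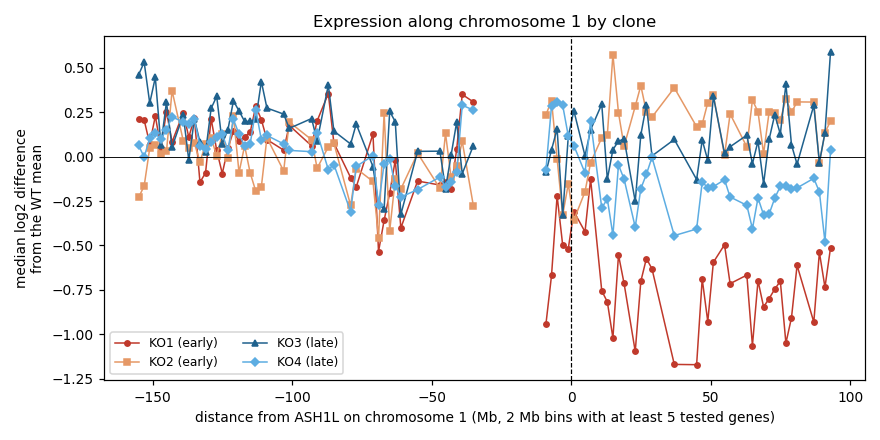
Median log2 difference from the WT mean per 2 Mb bin along chromosome 1, by distance from ASH1L (dashed line at 0), for each clone; lines are broken where bins with at least 5 tested genes are over 10 Mb apart. Around 0 both early-stop clones lie below the late-stop ones, and farther to the right KO1 is low while KO2 is the higher early-stop clone.

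The nearest neighbours of ASH1L showed the same order one by one. Of the 5 nearest tested genes on each side, all 10 had a positive difference late-stop minus early-stop, and in 7 the classes did not overlap. FDPS, which makes farnesyl diphosphate in the mevalonate pathway, was at 6.39 to 6.56 in WT, 5.92 and 6.04 in KO1 and KO2, and 6.63 and 6.55 in KO3 and KO4. DAP3, a mitochondrial ribosomal protein, was at 5.90 to 6.01 in WT, 5.29 and 5.33 in the early-stop clones, 6.14 in KO3 and 5.76 in KO4. ASH1L-AS1, which starts beside ASH1L on the other strand, overlapped between classes, and its reads cannot be told apart from those of ASH1L where they overlap, since strand is not stated.

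Of the 73 genes with unadjusted p under 0.05, 13 lie in this stretch, and all 13 were higher in the late-stop clones. Besides MLLT11, ECM1, FDPS and DAP3 they include abundant genes. S100A16, a calcium-binding protein, was at 7.58 to 7.71 in WT, 7.03 and 7.02 in KO1 and KO2, and 7.73 and 7.91 in KO3 and KO4. SHC1, an adaptor of receptor tyrosine kinases, was at 6.21 to 6.35 in WT, 5.62 and 5.70 in the early-stop clones, and 6.69 and 6.30 in the late-stop ones. ILF2, an RNA-binding protein, and the proteasome subunits PSMD4 and PSMB4 had differences of 0.61 ± 0.22, 0.58 ± 0.22 and 0.57 ± 0.22 (SE). NES, the intermediate filament nestin, was at 4.84 in KO1 and 3.42 in KO2 against 5.21 in KO3 and 6.21 in KO4. MLLT11 and ECM1 exceeded this regional shift: against the genes within 5 Mb their differences were still 2.17 and 1.31. What sets these regional medians was not tested.

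Other chromosomes carried smaller shifts. On chromosome 6 from 30 to 60 Mb, 184 genes had medians of -0.06 and -0.20 in KO1 and KO2 against 0.16 and 0.09 in KO3 and KO4, and 44.6% were higher in late-stop clones without overlap. On chromosome 9, 436 genes had medians of 0.48 and 0.38 in KO1 and KO2 against 0.03 in KO3 and 0.29 in KO4. There 33.9% of genes were lower in the late-stop clones without overlap. Chromosomes 18 and 3 had median differences of -0.24 and -0.21, with 26.3% and 27.0% of genes lower in the late-stop clones without overlap, but their clone medians overlapped between classes. On chromosome 18 KO1 alone was high, at 0.21 against -0.28 in KO2, and on chromosome 3 KO3 alone was low, at -0.24 against 0.10 in KO4. Chromosome 20 had a difference of -0.22 and separated medians, carried by KO3 at -0.28, with KO4 at 0.09 near 0.14 in both early-stop clones. Chromosome 15 had separated medians with a difference of -0.07, and chromosome 6 as a whole had higher late-stop medians, at 0.12. Of the 11 genes higher in late-stop clones by at least 1, 6 lie on chromosome 2 and 3 on chromosome 1. Of the 10752 tested genes with a position, 681 lie on chromosome 2 and 1125 on chromosome 1. Of the 6 genes, 1 is a clone-based transcript beside COL6A3. Of the 8 genes lower by at least 1, 2 also lie on chromosome 2. From 20 to 80 Mb of chromosome 2, 21.9% of 219 genes were higher in late-stop clones without overlap, but KO4 at -0.17 stood much nearer to KO1 and KO2 at -0.25 and -0.23 than to KO3 at 0.14.

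**Figure D4:**
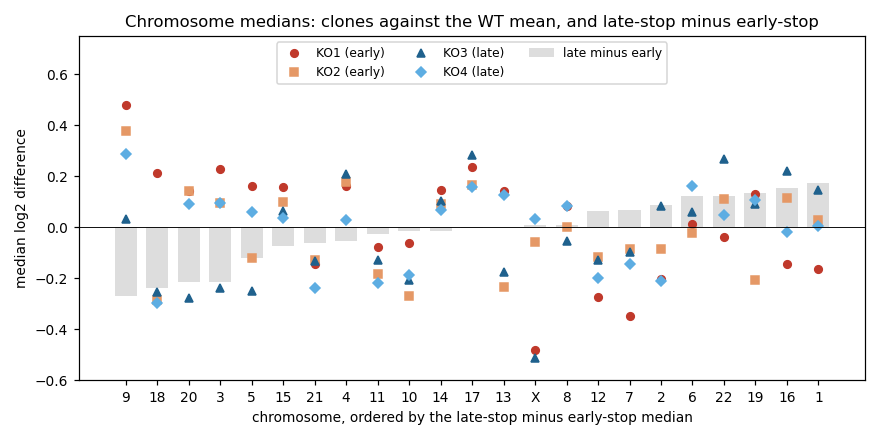
Median log2 difference per chromosome: symbols give each clone against the WT mean and grey bars the difference late-stop minus early-stop. On chromosome 9 the late-stop medians, 0.03 and 0.29, lie below the early-stop ones, and on most other chromosomes the classes overlap.

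Gene lists were described by the count of members and their median, beside a median of 0.01 over all tested genes, of which 51.4% had a positive difference and 9.84% in each direction had no overlap between classes. In lists with at least 10 tested members the medians ran from -0.40 to 0.29. Genes of the ASH1L complex and of H3K36 and H3K4 methylation showed no order by class. Of 29 tested, 15 had a positive and 14 a negative difference, the median was 0.01, and in 1 gene each way the classes did not overlap. MORF4L1 was at 4.76 to 4.86 in WT, 5.17 and 5.06 in KO1 and KO2, and 4.89 and 5.01 in KO3 and KO4. All 4 clones were above WT, and the classes were split by a gap of 0.04.

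Polycomb genes had 12 positive and 19 negative differences among 31, with a median of -0.08. PCGF5, a subunit of a variant Polycomb complex, had the smallest p among them. It was at 0.30 to 0.40 in WT, 2.60 in KO1, 1.42 in KO2, 1.36 in KO4 and -0.69 in KO3, so KO3 was the clone away from the others. The methyltransferase EZH2 was at 5.005 to 5.014 in WT, 4.43 and 4.48 in the early-stop clones, and 4.77 and 4.54 in the late-stop ones, below WT in every clone, with a difference between classes of 0.20 ± 0.24 (SE). Of 15 HOX genes and cofactors 11 had a negative difference (median -0.21), and in 2 of them the classes did not overlap, PKNOX1 with a gap of 0.07 and HOXB5 with a gap of 0.21. That is 13.3% of the list, near the 9.84% of all genes that were lower without overlap. HOXB5 is among the 31 genes above 0 in the early-stop clones only, so the filter fixed part of its separation.

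Cholesterol synthesis had the most one-sided counts of a metabolic list. Of 25 genes, 20 had a positive difference, 9 were higher in late-stop clones without overlap and 0 lower (9.84% each way over all genes), and the median was 0.20. The clone medians against WT were -0.11 and -0.06 in KO1 and KO2, and 0.14 and 0.08 in KO3 and KO4. The members with the smallest p were FDPS and PMVK, the phosphomevalonate kinase, and both lie in the stretch around ASH1L. PMVK was at 5.42 to 5.499 in WT, 4.77 and 5.23 in KO1 and KO2, 5.86 in KO3 and 5.502 in KO4. NSDHL, a sterol dehydrogenase on chromosome X, was at 5.68 and 5.37 in the early-stop clones and 5.97 and 5.98 in the late-stop ones. Chromosome X had a regional shift of its own. From 150 to 160 Mb, 28.3% of 60 genes were higher in the late-stop clones without overlap, with a median difference of 0.26. The part of this shift in the values of NSDHL was not tested. Without the 2 genes of the stretch around ASH1L the median over the other 23 was 0.18, with 7 higher and 0 lower without overlap. In fatty acid synthesis, FADS2, a desaturase, was at 4.14 to 4.60 in WT, 2.32 and 2.29 in KO1 and KO2, and 3.09 and 3.12 in KO3 and KO4, and the list's median was 0.14 over 21 genes.

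Matrix genes also had clone medians in the order of the classes. Of 39 tested, 25 had a positive difference, 8 were higher and 1 lower in the late-stop clones without overlap (9.84% each way over all genes), and the median was 0.24. Clone medians against WT were -0.22 and 0.0038 in KO1 and KO2, and 0.05 and 0.26 in KO3 and KO4, so KO2 and KO3 were close. Without THBS3, which lies in the stretch around ASH1L, 7 were higher and 1 lower, and the median over the other 38 was 0.22. The clone medians were then -0.06, -0.03, 0.01 and 0.20 in KO1 to KO4. LTBP1, which binds latent TGF-beta, was at 4.77 to 4.90 in WT, 4.01 and 3.34 in KO1 and KO2, and 4.78 and 4.77 in KO3 and KO4. The late-stop clones were at the WT level and the early-stop clones below it. LTBP1 was also among the genes picked by smallest p, so it is no separate evidence. EFEMP1 (fibulin-3) was at 4.84 to 5.02 in WT, 3.80 and 3.55 in KO1 and KO2, and 4.33 and 4.50 in KO3 and KO4. FN1 (fibronectin) was at 7.04 to 7.22 in WT, 5.07 and 5.51 in KO1 and KO2, and 5.74 and 7.36 in KO3 and KO4, so KO3 was nearer to the early-stop clones than to KO4. LAMB2, a laminin beta chain, was the member lower in the late-stop clones. LUM, a proteoglycan also used here as a fibroblast marker, was at 5.19 to 5.38 in WT, 4.21 and 4.68 in the early-stop clones, and 5.85 and 5.02 in the late-stop ones. The fibroblast markers COL1A1 and PDGFRA overlapped between classes. COL1A1 was at 0.86, -0.09, 2.86 and 0.48 in KO1 to KO4. PDGFRA was at 3.09 to 3.33 in WT, and at -6.82, 2.37, 2.37 and -1.75 in KO1 to KO4. The part of fibroblast markers in the matrix values was not tested.

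All 10 replication-dependent histone genes tested had a negative difference, with a median of -0.40, and in 3 the late-stop clones were lower without overlap, beside 9.84% over all genes. In HIST1H2BK, one of the 3, the gap was only 0.0015. HIST2H2BE and HIST3H2A lie on chromosome 1 and all the others within chr6:26055787-27811300, so the 10 signs are not 10 separate observations. Clone medians against WT were 0.97 and 0.67 in KO1 and KO2, and 0.71 and 0.14 in KO3 and KO4, so KO3 lay between the early-stop clones and KO4 was nearest to WT. HIST1H2BC was at 0.78 to 1.17 in WT, 1.65 and 1.82 in KO1 and KO2, and 0.69 and 0.87 in KO3 and KO4. HIST1H2AC was at 2.90 to 3.15 in WT, 4.07 and 4.10 in the early-stop clones, 3.79 in KO3 and 3.21 in KO4. These genes are near-identical copies and mostly lack poly(A) tails, so their values are uncertain.

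MAPK output genes had 15 positive and 10 negative differences among 25, and a median of 0.15. Their clone medians were -0.23 and -0.32 in the early class, -0.10 in KO3 and 0.17 in KO4. The immediate early factor EGR1 and the ligand HBEGF had the smallest p. EGR1 was at 2.55 and 3.32 in the early-stop clones and 2.20 and 1.96 in the late-stop ones, but its WT values of 2.16, 2.87 and 3.32 covered most of that range. HBEGF ran the other way, at 2.07 to 2.55 in WT, 1.18 and 0.67 in KO1 and KO2, and 2.14 and 1.52 in KO3 and KO4. Among 16 Notch pathway genes the median difference was 0.29, but the late-stop clone medians of -0.06 and -0.16 lay below those of the early-stop clones, so both summaries differ in sign. Among 11 Tribbles genes and MLL partners the median was 0.03, and TRIB2 and MLLT11 were the 2 without overlap. That is 18.2% of the list, near the 19.7% of all genes without overlap. Both were already named above by their small p, so this list is no separate evidence. Lists in which clones of 1 class stood far apart gave no order by class. Epithelial junction genes had clone medians of -1.02 in KO1 and 0.35 in KO2, and chemokines and cytokines of -1.10 and 0.16. Integrins had medians of -0.78 in KO3 and 0.40 in KO4, and interferon-stimulated genes of -0.49 and 0.39.

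**Figure D5:**
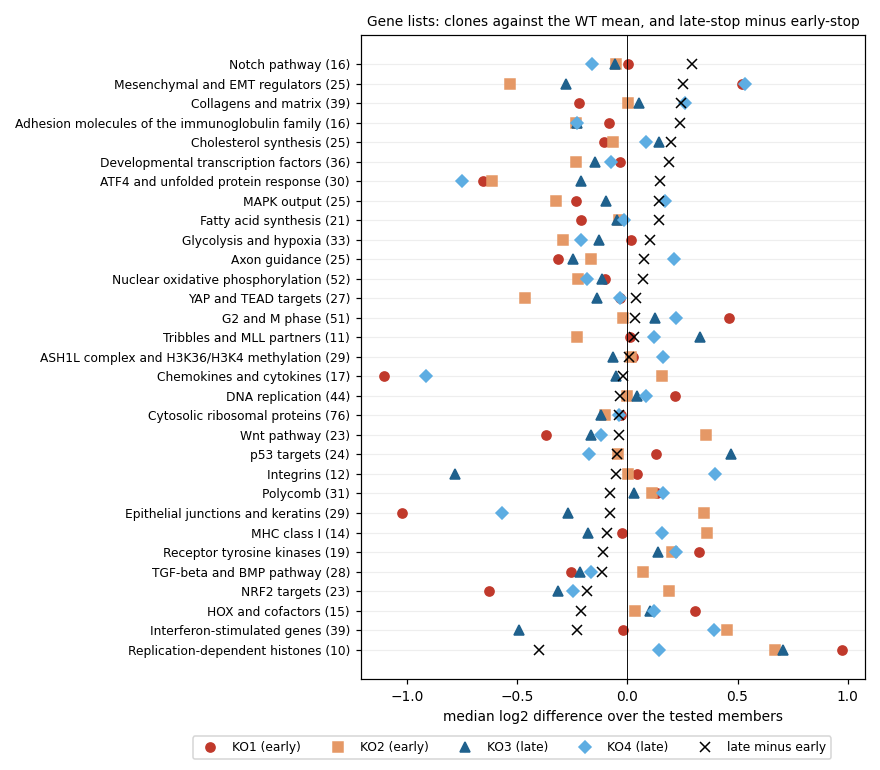
Median log2 difference over the tested members of each list with at least 10 of them (number in brackets): coloured symbols give each clone against the WT mean and crosses the difference late-stop minus early-stop. Cholesterol synthesis has both late-stop medians, 0.14 and 0.08, above the early-stop ones, and in most lists clones of a class lie as far apart as clones of different classes.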

How the data were processed

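RNA-seq of 7 libraries was used as 1 table of log2 RPKM values deposited by the authors. The submitters' processing notes name build hg38 with HTSeq 0.11.2, STAR 2.5.3a, Trim Galore 0.4.1 and edgeR. Not given in the sources used here are the annotation, strand, prior count, filters and read totals, so intervals cover the spread between clones only. No pseudocount and no further scaling was applied, so a gene without reads takes a low value that depends on its length.

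Early-stop and late-stop clones were compared with limma 3.58.1 (R 4.3.3) on the 4 clones, with a variance trend, Benjamini-Hochberg adjustment and adjusted p under 0.05. P-values measure only the spread between these clones. ASH1L had an exact permutation test. Positions came from GENCODE 29 (95.2% of genes matched). Named genes were ASH1L, the 8 per direction with the smallest p, no overlap and a level of at least 1 in the higher class, up to 5 per order around WT by gap, and up to 3 per described list. Genes named for a gap of at least 1, the region around ASH1L, EZH2, MORF4L1, FN1, list members without overlap and marker genes were named after their values were seen. The comparison's members and the 34 lists were chosen with earlier results of these data known. The fit was tested on simulated data. With the 4 clones it recovered 0% of changes of 1 or 2 log2 units, 42% of changes of 4 and 64% of changes of 8, with 1 false call. With all 7 libraries it made 139 false calls. Alternatives covered scaling, filters, variance options, a floor, position centring and leaving out each clone. A gene among those separated by at least 1 log2 unit is counted but not reported here.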

Additional observations from a re-analysis of the deposited data

How the results depend on the processing

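Under the 14 alternatives, 0 genes passed the adjusted threshold (limma) in 13, and 1 gene passed without KO2, when KO1 alone stood for the early class and was assumed to vary like the late-stop clones: LGR4, at 5.69 (adjusted p = 0.0487). Genes with unadjusted p under 0.05 numbered 73 in the comparison as reported and 422 with all 7 libraries in the fit. They ranged from 62 without KO3 to 664 without KO1, with 482 without KO2 and 203 without KO4. Genes with a gap of at least 1 ranged from 13 to 28 under other scalings, filters and position centring, and from 106 without KO3 to 551 without KO1, with 411 without KO2 and 318 without KO4, since a class of 1 clone is easier to separate. The split of these genes was 11 higher and 8 lower as reported, and 12 and 14 after quantile normalization. The difference of ASH1L ranged from -0.19 without KO4 to 1.13 without KO3. The 23 other named and separated genes kept their direction in all 315 gene and setting pairs, and none passed (lowest adjusted p 0.139). Of 31 list medians, 7 kept their sign in every setting, 22 changed it only when a clone was left out, and 2 changed it elsewhere. No paired analysis was possible because the early-stop and late-stop clones share no replicate number in the labels. With 2 clones against 2, the median half-width of the unadjusted 95% interval was 0.86 log2 units.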
